A study of Mus musculus with 54 samples.

Results

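The change from postnatal day 9 (PN9) to postnatal day 13 (PN13) in the neural retina of wild-type mice is described here, across every gene with an annotated symbol. The members are 6 of the 54 arrays of the study, chosen by their titles: 3 arrays of wild-type (WT) retina at PN9 and 3 of WT retina at PN13. All 6 came from the C3H strain carrying the wild-type allele on both copies of the rd1 locus (C3H wt/wt), with no treatment named in the labels. Each array held biotin-labelled cRNA made from total RNA of dissected neural retina. The arrays of an age are labelled as biological replicates, and the number of animals behind an array is not given in the sources used here. The p-values thus measure the spread between arrays of the same genotype and age. In the main fit that spread is pooled over 50 arrays of the study, not taken from these 6 alone. The study followed WT and rd1 retina, the latter C3H mice with the rd1 allele on both copies (C3H rd1/rd1), from PN5 to PN35. Its title concerns the loss of rod photoreceptors in rd1 mice, a model of retinitis pigmentosa, and the proteasome. WT arrays at PN5 (2 arrays), PN11 (3) and PN12 (2), and rd1 arrays at PN9 and PN13 (3 each), served as comparisons. Because rd1 is a whole-animal mutation and these are whole retinas, every value is a sum over all retinal cell types, and fewer cells of a type cannot be told apart from less RNA per cell.

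In the mouse retina, the last progenitors leave the cell cycle and the last rods, bipolar cells and Müller glia are born during the days after birth. Rods then build the outer segment, a stack of membrane discs grown from a modified cilium, which holds the G protein transducin, the phosphodiesterase that hydrolyses cyclic GMP, and the cyclic nucleotide-gated channel that closes in light. Rod and cone terminals meanwhile form ribbon synapses onto bipolar and horizontal cells, Müller glia take up their roles in potassium, water and glutamate clearance, and the eyes open around the end of the interval studied.

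The deposited intensities gave values for 18193 genes after log2 transformation, with the probe set of highest mean standing for a gene. Median intensities ran from 128.9 to 132.9 over the 6 arrays. Over all genes, the 6 pairs of arrays of one age correlated at 0.996 to 0.998 (Pearson's r across genes, which are not independent replicates), and the standard deviation of their log2 differences was 0.136 to 0.189. The 9 pairs that crossed the ages correlated at 0.986 to 0.991, with a standard deviation of 0.281 to 0.339. Differences are given throughout as PN13 minus PN9 on the log2 scale ± standard error, from limma fitted on 50 arrays, and "rose" or "fell" is used of genes with a Benjamini-Hochberg adjusted p under 0.05 over all genes.

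The retina changed broadly over the interval. Of 18193 genes, 3760 (20.7%) passed the test, 1985 of them higher at PN13 (10.9%) and 1775 lower (9.76%). Most changes were small, with 162 genes rising by 2-fold or more (0.89%) and 36 falling by 2-fold or more (0.198%). The balance of rises and falls depended on the scale: an alternative that centred each array on its amacrine and ganglion cell genes subtracted the same 0.28 from every difference and called 787 genes higher and 12653 lower. A list's distance from the median of all genes, which was -0.02 on the deposited scale and -0.30 after centring, was the same under both.

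The 12 largest rises held components of rods, cones and Müller glia next to genes induced by interferon. Pdzph1, which encodes a PDZ and pleckstrin homology domain protein, read 6.48, 6.43 and 5.89 in the PN9 arrays and 10.28, 10.15 and 10.50 in the PN13 arrays (4.04 ± 0.19, 16.5-fold, adjusted p = 5.06e-19). Kcnj14, an inwardly rectifying potassium channel subunit, went from 5.89, 5.99 and 5.97 to 9.88, 9.72 and 10.21 (3.99 ± 0.22, adjusted p = 5.92e-17). Both were low in every PN9 array and high in every PN13 array. Separate groups were a condition for these 12 genes and for the 12 falls, and are thus no result. Elsewhere, groups that do not overlap only describe genes named with their values known. The share of all genes without overlap is not given here. Guca1b encodes a guanylate cyclase-activating protein, a calcium sensor that restarts cyclic GMP synthesis after light. It read 9.74, 9.65 and 9.62 at PN9 and 12.99, 12.98 and 13.22 at PN13 (3.39 ± 0.16, 10.5-fold, adjusted p = 6.19e-19). The water channel Aqp1 went from 5.96, 6.11 and 6.11 to 9.34, 9.07 and 9.44 (3.22 ± 0.22). Drd4, a dopamine receptor of photoreceptors, went from 9.48, 9.21 and 9.11 to 11.94, 11.98 and 12.00 (2.71 ± 0.22). The medium-wavelength cone opsin Opn1mw (2.50 ± 0.22), the glial water channel Aqp4 (2.46 ± 0.18), the matrix glycoprotein vitronectin Vtn (2.37 ± 0.12) and the cytokine Il33 (2.32 ± 0.20) also rose. The other 3 of the 12, Oasl2, Ifitm3 and Usp18, belong to the interferon response and are taken up below.

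The 12 largest falls held genes of young neurons, glial precursors and transcription. Slc6a2, the noradrenaline transporter, read 9.52, 9.49 and 9.64 at PN9 and 7.41, 7.50 and 7.34 at PN13 (-2.13 ± 0.11, adjusted p = 2.24e-18). Fabp7, a fatty acid-binding protein of radial glia and progenitors, went from 11.80, 11.79 and 11.70 to 9.87, 9.59 and 9.55 (-2.09 ± 0.12, adjusted p = 1.63e-16). Vxn, a regulator of neuronal differentiation, fell by 1.89 (SE 0.18), the Myb family factor Mybl1 by 1.84 (SE 0.17) and the GTPase-activating protein Arhgap31 by 1.82 (SE 0.10). The surface protein Cd24a (-1.77 ± 0.14), the nicotinic receptor subunit Chrnb4 (-1.57 ± 0.09), the long noncoding RNA Miat (-1.43 ± 0.11) and the transcription factor Sox11 (-1.38 ± 0.15) also fell. Rag1 (-1.36 ± 0.17), Shisa2 (-1.33 ± 0.11) and the glypican Gpc2 (-1.29 ± 0.36, adjusted p = 0.00665) completed the 12. Gpc2 had the largest standard error of these 12, reading 8.30, 7.62 and 7.91 at PN9 and 6.61, 6.44 and 6.91 at PN13.

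**Figure D1:**
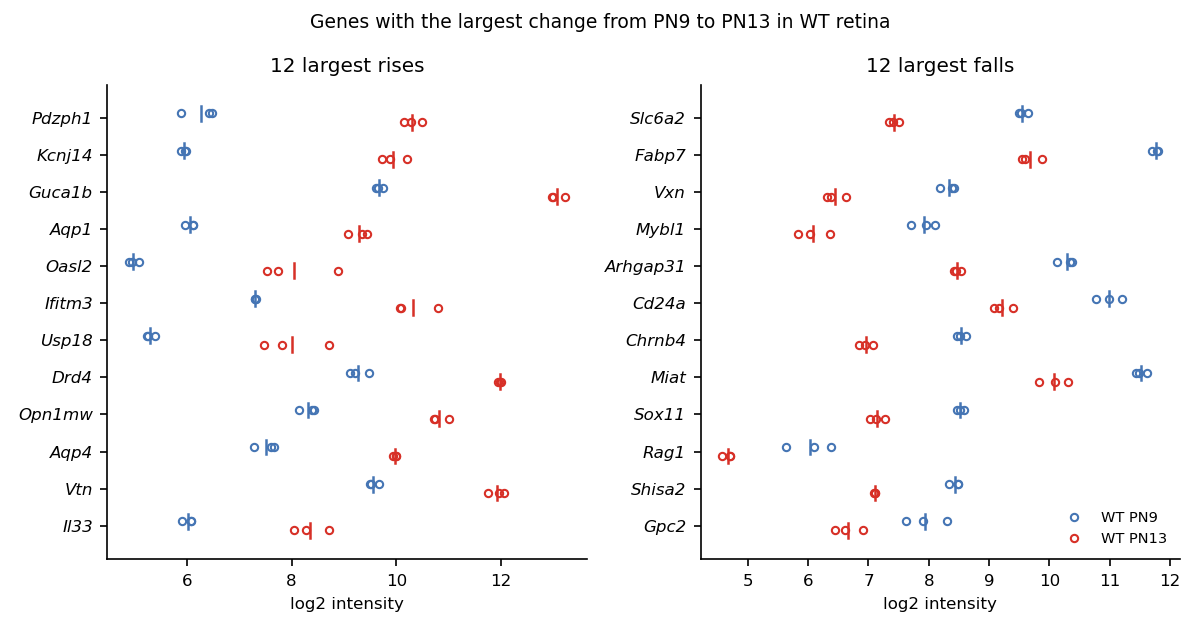
Log2 intensity of the 12 genes with the largest rises and the 12 with the largest falls in each of the 3 WT PN9 and 3 WT PN13 arrays (1 point per array). Separate groups were a condition of the choice; the differences run from 4.04 for Pdzph1 to the 1.29 by which Gpc2 fell, and 1 PN13 array stands above the other 2 for Oasl2, Ifitm3 and Usp18.

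Genes were then read by group, using 33 lists of 666 measured entries that cover the retinal cell types, the photoreceptor machinery, metabolism and tissues around the retina. The list of rod phototransduction genes held the highest share of rises, with 19 of 21 measured members higher, none lower and a median difference of 0.61. Interferon-response genes had the highest median, 1.00, with 11 of 15 higher. At the other end, 14 of 30 progenitor and cell cycle genes were lower (median -0.28) and 17 of 32 neurite growth genes were lower (median -0.25). Of oxidative phosphorylation genes 2 of 38 were higher, with a median of -0.01.

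**Figure D2:**
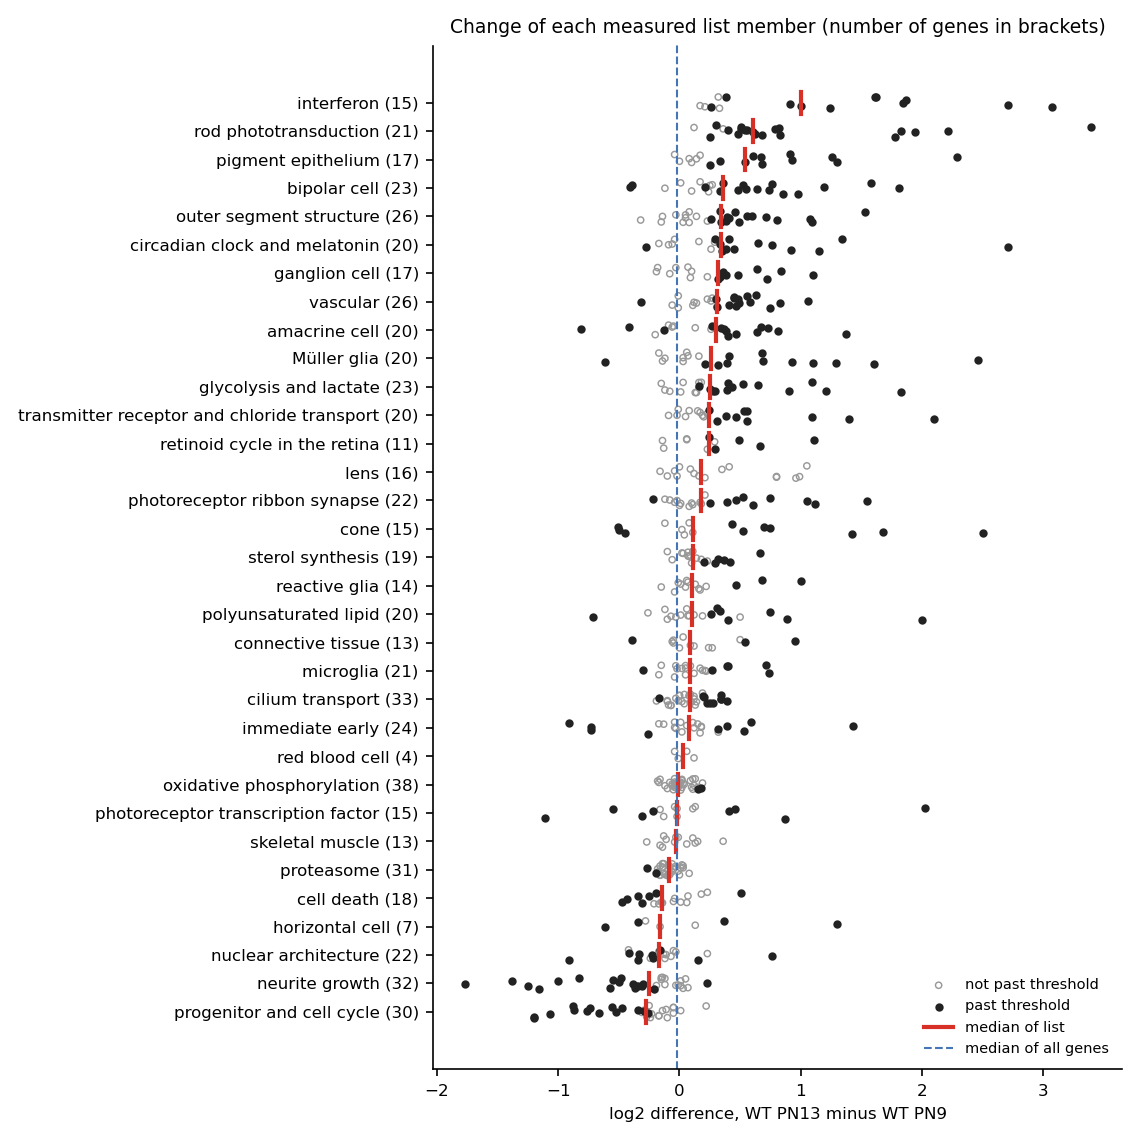
For each of the 33 gene lists, the log2 difference PN13 minus PN9 of every measured member (points) and the list median, with filled points for members that passed the test. Interferon (median 1.00) and rod phototransduction (0.61) lie farthest to the right and progenitor and cell cycle genes (-0.28) farthest to the left.

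Promoter windows are shown before the values for rod genes, of which 19 of 21 rose, and with the interferon genes further on. CRX and OTX2, homeodomain factors of photoreceptors, bind TAATCC. In the 250 bases before the gene start (RefSeq, mouse build GRCm38.p6), searched on both strands, TAATCC or its reverse complement GGATTA was present in 8 of 14 windows of rod phototransduction genes (57.1%), those of Aipl1, Cnga1, Cngb1, Gnb5, Gngt1, Guca1a, Gucy2e and Sag. It was present in 2054 of 32851 windows of all genes (6.25%), in 5 of 31 of outer segment genes (16.1%), in 2 of 17 of cone genes (11.8%) and in 4 of 26 of bipolar cell genes (15.4%). TGCTGA, a core of the site of the rod factor NRL, was in 4 of the 14 rod windows (28.6%) against 16.1% of all windows. A match says only that the letters are in the window, and no match only that these letters are not in it. The windows of 3 rod genes that rose are given 5′ to 3′ along the gene's own strand, with the GGATTA match in capitals, which starts 57, 53 and 42 bases before the gene start in Guca1a, Aipl1 and Gucy2e:
Guca1a, chr17:47400607-47400856, minus strand: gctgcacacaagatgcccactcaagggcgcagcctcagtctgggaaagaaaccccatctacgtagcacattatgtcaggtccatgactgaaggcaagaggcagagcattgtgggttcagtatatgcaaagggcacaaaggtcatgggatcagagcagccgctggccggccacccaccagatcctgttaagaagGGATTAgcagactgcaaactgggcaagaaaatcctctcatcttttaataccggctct
Aipl1, chr11:72037510-72037759, minus strand: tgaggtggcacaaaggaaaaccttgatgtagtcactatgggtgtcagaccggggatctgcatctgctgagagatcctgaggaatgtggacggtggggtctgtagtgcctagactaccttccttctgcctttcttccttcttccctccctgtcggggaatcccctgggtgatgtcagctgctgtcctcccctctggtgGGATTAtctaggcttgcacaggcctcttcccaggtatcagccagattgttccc
Gucy2e, chr11:69237023-69237272, minus strand: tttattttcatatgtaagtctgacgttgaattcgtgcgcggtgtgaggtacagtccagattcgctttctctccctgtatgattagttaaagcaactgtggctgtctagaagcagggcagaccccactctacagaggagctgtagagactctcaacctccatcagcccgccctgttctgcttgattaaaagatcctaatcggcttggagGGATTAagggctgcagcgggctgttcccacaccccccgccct

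Rod phototransduction rose almost as a whole. Gnat1, the rod transducin alpha subunit, read 12.01, 11.75 and 11.59 at PN9 and 14.04, 13.93 and 14 at PN13 (2.21 ± 0.23, 4.62-fold, adjusted p = 6.18e-10). Slc24a1, the sodium, calcium and potassium exchanger of the outer segment membrane, went from 10.22, 10.15 and 9.72 to 11.99, 11.95 and 11.96 (1.94 ± 0.22). In both, PN9 replicate 3 was the lowest array and the PN13 arrays were close together. Guca1a, which encodes the other calcium sensor of the cyclase, went from 9.43, 9.64 and 9.60 to 11.43, 11.15 and 11.57 (1.83 ± 0.11). With Guca1b this made both measured cyclase-activating proteins rise by 3.55-fold or more. The cyclase they act on rose less: Gucy2e read 7.19, 6.98 and 7.14, then 7.64, 7.90 and 7.45 (0.56 ± 0.15), and without PN13 replicate 2 its adjusted p was 0.0541 (0.44). Shutoff and calcium feedback genes also rose, among them Rgs9bp, the membrane anchor of the GTPase accelerator (0.83 ± 0.10), its partner Gnb5 (0.79 ± 0.09, with a second probe set at 0.07), the kinase Grk1 (0.62 ± 0.12) and recoverin Rcvrn (0.61 ± 0.11).

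The 3 measured subunits of the rod phosphodiesterase differed. The catalytic alpha subunit Pde6a went from 8.54, 8.23 and 8.35 to 10.36, 9.94 and 10.17 (1.78 ± 0.19, 3.44-fold), and the inhibitory subunit Pde6g rose by 0.54 ± 0.08. Pde6b, the catalytic beta subunit and the gene mutated in rd1 mice, read 12.82, 12.82 and 12.74 at PN9 and 13.15, 13.14 and 13.17 at PN13. Its groups did not overlap, yet the difference of 0.36 ± 0.17 missed the threshold (adjusted p = 0.138) in the fit whose spread is pooled over WT and rd1 arrays. Fitted on the 6 arrays alone with the replicate number as a block, its adjusted p was 7.77e-05, and with the WT arrays alone it was 0.000208. The channel subunits Cnga1 (0.68 ± 0.10) and Cngb1 (0.40 ± 0.09) rose by less than the exchanger. Phosducin, Pdc, which binds transducin beta and gamma subunits, was the other member that did not pass, at 13.33, 13.34 and 13.16 against 13.47, 13.36 and 13.36 (0.12 ± 0.07, adjusted p = 0.27). Arrestin Sag rose by 0.30 ± 0.07, at readings of 14.04 to 14.41 near the top of the scale, and after quantile normalization its difference was -0.00 (adjusted p = 1). Centring left 12 of the 21 members higher, none lower, and a median of 0.33.

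Outer segment structure followed with smaller rises, 15 of 26 members higher and none lower (median 0.34). Fscn2, the photoreceptor actin-bundling fascin, read 6.62, 6.90 and 6.85 at PN9 and 8.42, 8.16 and 8.37 at PN13 (1.53 ± 0.13, 2.88-fold). Peripherin Prph2, the tetraspanin that curves the disc rim, went from 10.45, 10.20 and 10.51 to 11.36, 11.37 and 11.70 (1.09 ± 0.16), while its partner Rom1 rose by 0.39 ± 0.10. Reep6, a membrane-shaping protein of the rod endoplasmic reticulum (1.08 ± 0.13), the retinal flippase Abca4 (0.80 ± 0.09), the matrix proteoglycan Impg1 (0.71 ± 0.15) and the ciliary protein Fam161a (0.60 ± 0.09) rose too. None of these groups overlapped, though the genes were named with their differences known. The disc protein Prom1 (0.05) and the cadherin Cdhr1 (0.05) did not pass, nor did the ciliary GTPase regulators Rpgr (-0.32) and Rp2 (-0.15). After centring, 8 members were higher and 8 lower, with the median still above 0 at 0.06.

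Genes of the cilium that carries this cargo changed by small amounts. The list held 33 genes, among them those of intraflagellar transport, its motors and the BBSome, the coat complex that moves membrane proteins in cilia. Other ciliary genes such as Nphp4 and Lca5 were also in it. Of these, 9 were higher and 1 lower (median 0.09), against 10.9% of all genes higher and 9.76% lower. Without PN13 replicate 3 only 5 were higher. Centring turned the median to -0.19, with none higher and 15 lower. The BBSome subunits Bbs4 (0.39 ± 0.07) and Bbs5 (0.34 ± 0.08) rose, as did the ciliary protein Lca5 (0.34 ± 0.09), whose adjusted p was 0.0514 (0.25) without PN13 replicate 1. The 1 fall, of the transition zone gene Nphp4 (-0.17 ± 0.06), was lost without PN9 replicate 1 (adjusted p = 0.0652), PN9 replicate 2 (0.0905) or PN13 replicate 1 (0.129), and with the mean of its probe sets (-0.12, adjusted p = 0.143).

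Cone genes went in both directions. The medium-wavelength opsin Opn1mw read 8.42, 8.15 and 8.39 at PN9 and 10.74, 10.72 and 11.00 at PN13 (2.50 ± 0.22, 5.66-fold), whereas the short-wavelength opsin Opn1sw went from 11.53, 11.62 and 11.65 to 12.05, 12.08 and 12.24 (0.52 ± 0.08). Both opsins rose without overlap, with the larger change in the medium-wavelength one. The cone phosphodiesterase inhibitory subunit Pde6h went from 7.26, 7.40 and 8.06 to 9.42, 9.05 and 9.28 (1.68 ± 0.18), and the potassium channel subunit Kcne2 (1.42 ± 0.12), cone arrestin Arr3 (0.75 ± 0.12), cone transducin Gnat2 (0.70 ± 0.07) and the catalytic subunit Pde6c (0.43 ± 0.10) rose. In the opposite direction, the channel subunit Cngb3 fell by 0.51 (SE 0.11), the transducin gamma subunit Gngt2 by 0.50 (SE 0.08) and Rxrg, a nuclear receptor of developing cones, by 0.45 (SE 0.10). In all, 7 of 15 were higher and 3 lower (median 0.11, and -0.17 with 6 higher and 6 lower after centring).

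Transcription factors of photoreceptors changed in both directions, 4 of 15 higher and 4 lower (median -0.02; 3 higher and 10 lower after centring). Esrrb, an orphan nuclear receptor of mature rods, read 8.95, 8.88 and 8.85 at PN9 and 10.93, 10.78 and 11.04 at PN13 (2.02 ± 0.15, 4.06-fold). Mef2c (0.87 ± 0.10), Rora (0.46 ± 0.07) and Ankrd33 (0.41 ± 0.10) also rose. Prdm1, which holds back the bipolar fate in young photoreceptors, went from 10.74, 10.74 and 10.62 to 9.58, 9.67 and 9.52 (-1.11 ± 0.08), and Otx2, which specifies photoreceptors and bipolar cells, went from 12.31, 12.27 and 12.14 to 11.62, 11.73 and 11.71 (-0.55 ± 0.07). Crx and Nrl, factors of photoreceptor and rod fate, did not pass: Crx read 12.41, 12.38 and 12.27, then 12.50, 12.40 and 12.47 (0.11 ± 0.06, adjusted p = 0.256, overlapping), and Nrl differed by 0.13 ± 0.06 (adjusted p = 0.127; 0.0403 with the WT arrays alone).

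Enzymes that serve the visual pigment and the disc membranes rose in part. In the retinoid cycle, which regenerates the chromophore, Rdh12, the inner segment retinol dehydrogenase, read 11.25, 11.21 and 11.25 at PN9 and 12.31, 12.29 and 12.46 at PN13 (1.11 ± 0.12). Dhrs3 (0.66 ± 0.10) and Rlbp1, the retinal-binding protein of Müller glia (0.49 ± 0.10), rose as well. The list had 5 of 11 higher and none lower (median 0.24; -0.04 with 3 higher and 4 lower after centring), and 3 higher when PN9 replicate 1, PN9 replicate 3, PN13 replicate 1 or PN13 replicate 3 was left out. Among genes of long-chain polyunsaturated lipids, in which discs are rich, Cds1, an enzyme of phosphatidylinositol synthesis, read 8.25, 8.12 and 8.20, then 10.22, 10.07 and 10.29 (2.00 ± 0.14, 4.01-fold). Adipor1, needed for docosahexaenoic acid uptake, rose by 0.89 ± 0.06 and the acyltransferase Agpat3 by 0.75 ± 0.08. The elongases went separate ways, Elovl4 higher (0.33 ± 0.08) and Elovl2 lower (-0.71 ± 0.12). In this list 7 of 20 were higher and 1 lower (median 0.10; -0.18 with 4 higher and 9 lower after centring). Of 19 sterol synthesis genes 6 were higher and none lower (median 0.11; -0.17 with 1 higher and 10 lower after centring), led by the sterol sensor partner Insig1 (0.66 ± 0.13) and the synthase Fdft1 (0.42 ± 0.08), and 3 were higher without PN9 replicate 3 or PN13 replicate 3.

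At the photoreceptor terminal 9 of 22 ribbon synapse genes were higher and 1 lower (median 0.18; -0.10 with 7 higher and 10 lower after centring). Cabp4, a calcium sensor of the terminal's channel, read 8.56, 8.71 and 8.59 at PN9 and 10.16, 10.13 and 10.22 at PN13 (1.55 ± 0.19, 2.92-fold). The vesicular glutamate transporter Slc17a7 went from 10.85, 10.53 and 10.66 to 11.74, 11.85 and 11.81 (1.12 ± 0.14), and complexin Cplx4, which clamps vesicle release, from 10.25, 10.44 and 10.38 to 11.34, 11.38 and 11.50 (1.05 ± 0.12). Each was higher in all 3 PN13 arrays. The active zone gene Rims2 (0.75 ± 0.08) and the calcium channel Cacna1f (0.61 ± 0.12) rose. Piccolo, Pclo, was the 1 member lower (-0.22 ± 0.08), but its probe sets ran from -0.22 to 0.66, their mean was higher at 0.29 (adjusted p = 0.00393), and the call was lost without PN9 replicate 2 (0.109), PN9 replicate 3 (0.119), PN13 replicate 1 (0.164) or PN13 replicate 3 (0.135).

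Bipolar cell genes rose next to those of their inputs, 14 of 23 higher and 2 lower (median 0.36; 0.08 with 9 higher and 3 lower after centring). Gng13, a G protein gamma subunit of ON bipolar dendrites, read 8.68, 8.90 and 8.94 at PN9 and 10.54, 10.59 and 10.81 at PN13 (1.81 ± 0.23), with a second probe set at 0.06. The synaptic adhesion protein Lrrtm4 rose by 1.58 ± 0.17, the carbonic anhydrase-related Car8 by 1.19 ± 0.21 and Strip2 by 0.98 ± 0.18. Pcp2 (0.76 ± 0.19), the neurokinin receptor Tacr3 (0.74 ± 0.13) and Cabp5 (0.64 ± 0.18), markers of bipolar subtypes, rose as well. The channel Trpm1, which opens when light reduces glutamate, read 7.58, 7.45 and 7.37, then 7.44, 7.62 and 7.37 (0.01 ± 0.13, adjusted p = 0.981). The homeodomain genes of bipolar subtypes were lower, Vsx1 by -0.41 ± 0.11 and Lhx4 by -0.39 ± 0.08.

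Among inner retinal neurons, 11 of 20 amacrine genes were higher and 3 lower (median 0.30). Since the centring used the amacrine and ganglion cell genes themselves, their counts under it are fixed by its construction and are not given. The neuropeptide Vip read 7.24, 7.16 and 7.00 at PN9 and 8.54, 8.37 and 8.61 at PN13 (1.37 ± 0.14). Cartpt (0.81 ± 0.09), the GABA-synthesizing enzyme Gad1 (0.73 ± 0.08), calretinin Calb2 (0.67 ± 0.07) and Penk (0.64 ± 0.11) rose, while neuropeptide Y fell (Npy, -0.81 ± 0.08), as did the developmental factor Ebf3 (-0.42 ± 0.08). The third fall, of Tfap2b (-0.13 ± 0.04), was lost with the replicate block (adjusted p = 0.0758) and without PN9 replicate 1 (0.0516), PN9 replicate 3 (0.0974), PN13 replicate 1 (0.0773) or PN13 replicate 3 (0.105). Of 17 ganglion cell genes 9 were higher and none lower (median 0.32). The heavy neurofilament Nefh went from 9.06, 9.02 and 8.97 to 10.05, 10.02 and 10.27 (1.10 ± 0.11), and the surface protein Thy1 (0.84 ± 0.09), the nicotinic subunit Chrna6 (0.72 ± 0.09) and the glutamate transporter Slc17a6 (0.64 ± 0.09) rose. The 7 horizontal cell genes gave 2 higher and 2 lower, with calbindin Calb1 at 1.30 ± 0.10 (4 probe sets, 3 called, the fourth at 0.12) and the specification factor Onecut2 at -0.61 ± 0.13. Prox1 fell by 0.34 (SE 0.09), a call lost without PN9 replicate 1 (-0.23, adjusted p = 0.0744).

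Of 20 genes of transmitter receptors and chloride transport 10 were higher and none lower (median 0.24; -0.04 with 7 higher and 4 lower after centring). The GABA receptor subunit Gabrr2, found on bipolar terminals, read 7.41, 7.55 and 7.39 at PN9 and 9.62, 9.41 and 9.61 at PN13 (2.10 ± 0.20, 4.29-fold). The glycine receptor subunit Glra3 rose by 1.40 ± 0.17 (0.30 in its other probe set) and Glra1 from 6.75, 6.69 and 6.58 to 7.72, 7.72 and 7.86 (1.09 ± 0.15). Slc12a5, the exporter that keeps neuronal chloride low, rose by 0.56 ± 0.09, and its counterpart importer Slc12a2 stood at -0.02. The glutamate receptor subunit Gria3 rose by 0.56 ± 0.11.

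Müller glia genes rose as well, with 11 of 20 higher and 1 lower (median 0.26; -0.02 with 7 higher and 8 lower after centring). Aqp4, the water channel of glial endfeet, read 7.61, 7.67 and 7.28 at PN9 and 10, 9.94 and 10 at PN13 (2.46 ± 0.18, 5.5-fold, adjusted p = 1.08e-13). Clusterin, Clu, went from 10.34, 10.59 and 10.57 to 12.02, 12.08 and 12.19 (1.60 ± 0.12), and glutamine synthetase Glul, which clears glutamate, from 11.61, 11.49 and 11.21 to 12.77, 12.73 and 12.68 (1.29 ± 0.10). The PN13 arrays of each lay far above the PN9 arrays. The transporter Abca8a (1.10 ± 0.20), the potassium channel Kcnj10 (0.93 ± 0.10) and apolipoprotein E (Apoe, 0.69 ± 0.08) rose. Crym, a thyroid hormone-binding protein, was the member that fell (-0.61 ± 0.07). Genes that Müller glia share with progenitors did not pass, among them Vim (0.03), Hes1 (0.06), Sox2 (-0.12) and Sox9 (-0.17).

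Of 30 genes of progenitors and the cell cycle 14 were lower and none higher (median -0.28; none higher and 27 lower after centring). Mcm7, a subunit of the replicative helicase, read 10.41, 10.60 and 10.63 at PN9 and 9.36, 9.39 and 9.30 at PN13 (-1.20 ± 0.08, adjusted p = 3.51e-15). The proneural factor Neurog2 went from 8.63, 8.56 and 8.58 to 7.53, 7.35 and 7.28 (-1.20 ± 0.14), and cyclin D1, Ccnd1, from 9.71, 9.76 and 9.47 to 8.78, 8.61 and 8.34 (-1.07 ± 0.14). No PN13 array reached a PN9 array in these 3. Of Notch pathway genes, Hes5 (-0.88 ± 0.12), Notch1 (-0.87 ± 0.08) and its ligand Dll1 (-0.56 ± 0.08) fell, while Hes1, given with the Müller glia genes, did not pass. Markers of proliferation proper were lower by less, with Mki67 at 6.48, 6.55 and 6.62, then 5.78, 5.95 and 5.71 (-0.74 ± 0.17), and the topoisomerase Top2a at -0.66 ± 0.15 (3 probe sets, the smallest difference -0.08).

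Genes of axon and dendrite growth fell too, 17 of 32 lower and 1 higher (median -0.25; none higher and 30 lower after centring). Doublecortin, Dcx, a microtubule protein of young neurons, read 9.28, 9.34 and 9.34 at PN9 and 8.08, 8.15 and 7.97 at PN13 (-1.25 ± 0.07, adjusted p = 5.48e-17). Sox4 went from 12.78, 12.78 and 12.62 to 11.68, 11.47 and 11.53 (-1.16 ± 0.09; 5 of 8 probe sets called) and neuronatin, Nnat, from 12.65, 12.67 and 12.80 to 11.69, 11.68 and 11.73, so that it fell by 1.00 (SE 0.07). The neuronal tubulin Tubb2b (-0.83 ± 0.13), the growth cone proteins Marcks (-0.55 ± 0.06) and Gap43 (-0.37 ± 0.08) and stathmin Stmn1 (-0.48 ± 0.05) were also lower. Stmn3 alone was higher in this list (0.23 ± 0.07). That call reversed to -0.05 on centring and was lost without PN9 replicate 3 (adjusted p = 0.0567), PN13 replicate 1 (0.0512) or PN13 replicate 3 (0.075).

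Of 23 genes of glycolysis and lactate 13 were higher and none lower (median 0.25; -0.02 with 6 higher and 6 lower after centring). The lactate transporter Slc16a1 read 9.69, 9.55 and 9.40 at PN9 and 11.43, 11.24 and 11.46 at PN13 (1.83 ± 0.11), with a second probe set at 0.28. Hexokinase 2, Hk2, the photoreceptor isoform, went from 8.39, 8.51 and 8.56 to 9.73, 9.54 and 9.82 (1.21 ± 0.11), and Pfkfb2, which makes the activator of phosphofructokinase, from 10.28, 10.17 and 10.13 to 11.26, 11.37 and 11.22 (1.09 ± 0.09). The aldolase Aldoc rose by 0.90 ± 0.11 (0.10 in its other probe set), neuronal enolase Eno2 by 0.65 ± 0.08 and mitochondrial creatine kinase Ckmt1 by 0.52 ± 0.11. Of 38 subunits of the respiratory chain 2 were higher, Sdha (0.18 ± 0.06) and Atp5b (0.15 ± 0.05), against 10.9% of all genes higher. After centring none was higher and 33 lower (median -0.29), with both genes reversed (-0.09 and -0.12), and quantile normalization gave 1 higher and 5 lower. The block left Atp5b at an adjusted p of 0.0579 and called 2 members higher and 3 lower, no member was called without PN9 replicate 3, and 1 was called without PN13 replicate 1 or replicate 2. For Sdha, leaving out PN9 replicate 1 (0.076), PN9 replicate 3 (0.144), PN13 replicate 2 (0.102) or PN13 replicate 3 (0.14) took the adjusted p past 0.05, as did the mean of its probe sets (0.04, adjusted p = 0.664), and for Atp5b, PN9 replicate 1 (0.0507), PN9 replicate 3 (0.0632) or PN13 replicate 1 (0.172).

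Of 31 proteasome subunits 2 were lower and none higher, against 9.76% of all genes lower (median -0.09; 31 lower after centring), Psma4 from 11.11, 11.22 and 11.27 to 10.86, 10.97 and 10.97 (-0.27 ± 0.06) and Psmd6 (-0.19 ± 0.06). With the block 5 were lower, and 1 was lower without PN9 replicate 2, PN9 replicate 3 or PN13 replicate 1 and 4 without PN9 replicate 1. Psmd6 itself was not called without PN9 replicate 2 (adjusted p = 0.059), PN9 replicate 3 (0.0791) or PN13 replicate 1 (0.0554), nor with the mean of its probe sets (-0.09, adjusted p = 0.428). Among genes of nuclear architecture and chromatin, relevant to rods because their heterochromatin gathers at the centre of the nucleus, 7 of 22 were lower and 2 higher (median -0.17; 1 higher and 20 lower after centring). The histone methyltransferase Ezh2 read 9.62, 9.75 and 9.74, then 8.81, 8.78 and 8.78 (-0.91 ± 0.08), the chromatin binder Banf1 (-0.42 ± 0.08) and the lamina protein Tmpo (-0.34 ± 0.07) fell, and Syne1, a nuclear envelope anchor, rose (0.76 ± 0.10). Of 18 cell death genes 6 were lower and 1 higher (median -0.14; 1 higher and 13 lower after centring). Casp6 (-0.47 ± 0.08) and Apaf1, the caspase activator (-0.43 ± 0.09), fell, and the caspase inhibitor Xiap rose (0.51 ± 0.06; 2 of 7 probe sets called).

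Of 20 genes of the circadian clock and melatonin 12 were higher and 1 lower (median 0.34; 0.07 with 6 higher and 5 lower after centring). Besides Drd4, the output factor Dbp read 9.64, 9.76 and 9.68 at PN9 and 11.00, 11.00 and 11.12 at PN13 (1.34 ± 0.12), and its relative Hlf went from 9.09, 9.06 and 9.20 to 10.16, 10.32 and 10.31 (1.15 ± 0.10). The repressors Bhlhe40 (0.92 ± 0.11), Per3 (0.76 ± 0.10), Nr1d1 (0.65 ± 0.14), Per1 (0.45 ± 0.10) and Cry2 (0.41 ± 0.09) rose, and the activator Arntl fell (-0.28 ± 0.06). The hour of dissection is not given in the sources used here, so an effect of age and one of time of day cannot be told apart. Of 24 immediate early genes 5 were higher and 4 lower (median 0.08, and -0.19 with 3 higher and 12 lower after centring). Of all genes 10.9% were higher and 9.76% lower. Fos went from 7.82, 8.01 and 7.83 to 9.36, 9.26 and 9.33 (1.43 ± 0.16) and Nr4a1 rose by 0.59 ± 0.10, while Btg2 went from 11.71, 11.92 and 11.85 to 10.89, 10.93 and 10.94 (-0.91 ± 0.07) and Jun (-0.73 ± 0.18) and Ier5 (-0.73 ± 0.07) fell.

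Blood vessels and microglia contribute to whole retina, and the vascular list was 14 of 26 higher and 1 lower (median 0.31; 0.04 with 6 higher and 4 lower after centring). Slco1c1, the thyroxine transporter of the blood-brain barrier, read 6.82, 6.27 and 6.30 at PN9 and 7.63, 7.46 and 7.48 at PN13 (1.06 ± 0.13). The pericyte genes Abcc9 (0.83 ± 0.08) and Rgs5 (0.75 ± 0.09) and the endothelial genes Cldn5 (0.63 ± 0.10), Vwf (0.58 ± 0.11), Pecam1 (0.49 ± 0.11) and Flt1 (0.45 ± 0.09) rose. Angpt2, made at sprouting vessel tips, was the 1 lower (-0.32 ± 0.11), a call lost without PN9 replicate 2 (adjusted p = 0.15), PN9 replicate 3 (0.082), PN13 replicate 1 (0.161) or PN13 replicate 2 (0.0808), and with the mean of its probe sets (-0.14, adjusted p = 0.152). Of 21 microglia genes 5 were higher and 1 lower, against 10.9% and 9.76% of all genes (median 0.09, and -0.18 with 2 higher and 8 lower after centring). The purinergic receptor P2ry12 went from 6.22, 6.14 and 5.64 to 6.85, 6.78 and 6.61 (0.74 ± 0.11), and the protease Ctss (0.71 ± 0.09), the receptor Csf1r (0.40 ± 0.08) and complement C1qa (0.39 ± 0.10) rose, but the pan-microglial Cx3cr1 (0.09) and Tyrobp (-0.04) did not pass. Cd68, a lysosomal marker of activated cells, was lower (-0.30 ± 0.11, adjusted p = 0.0466), a call lost without any 1 of PN9 replicate 1 (0.1), PN9 replicate 2 (0.149), PN9 replicate 3 (0.054), PN13 replicate 1 (0.217) and PN13 replicate 3 (0.148).

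Markers of glial reaction mostly did not pass in WT retina. Higher were 3 of 14, against 10.9% of all genes (median 0.10, and -0.18 with 1 higher and 5 lower after centring). Cd44, a hyaluronan receptor on Müller microvilli, rose from 6.53, 6.37 and 6.28 to 7.61, 7.21 and 7.37 (1.00 ± 0.15), and Lcn2 from 4.96, 4.99 and 4.96 to 5.51, 5.40 and 5.41 (0.47 ± 0.09). S100a6 rose by 0.68 ± 0.22, a call lost without PN9 replicate 1 (adjusted p = 0.0521), PN9 replicate 3 (0.0763) or PN13 replicate 1 (0.168). Gfap, the intermediate filament of reactive glia, read 7.47, 7.50 and 7.16 at PN9 and 7.40, 7.77 and 7.35 at PN13, with overlapping groups (0.13 ± 0.18, adjusted p = 0.738).

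Genes of the interferon response, which cells switch on when they sense viral nucleic acid or interferon, had the highest list median. Of 15 genes 11 were higher and none lower (median 1.00, and 0.72 with 9 higher and none lower after centring). When the dimmest 30% of genes were left out, 7 were called higher. That filter takes genes out of the test, and how many of the 15 stayed in it is not given here. Of the genes named in this report, all 224 that stayed in kept their call or lack of one. Oasl2, an oligoadenylate synthetase-like protein, read 4.95, 5.08 and 4.90 at PN9 and 7.74, 8.88 and 7.54 at PN13 (3.07 ± 0.44, adjusted p = 7.75e-07). Ifitm3, an antiviral membrane protein outside the list, went from 7.30, 7.31 and 7.32 to 10.09, 10.79 and 10.07 (3.01 ± 0.40), and Usp18, the brake on interferon signalling, from 5.25, 5.24 and 5.39 to 7.81, 8.72 and 7.48 (2.71 ± 0.46). PN13 replicate 2 was the highest array for all 3, and the other PN13 arrays still lay well above every PN9 array.

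The remaining members ranged from antiviral effectors to antigen presentation. Ifit1, which binds foreign RNA, went from 4.98, 4.83 and 4.89 to 6.16, 7.81 and 6.34 (1.87 ± 0.39), Ifit3 from 6.49, 6.84 and 6.30 to 7.83, 8.80 and 7.88 (1.62 ± 0.28), and Rtp4 from 5.72, 5.77 and 6.01 to 7.52, 8.20 and 7.29 (1.84 ± 0.31; 0.22 in its other probe set). The invariant class I chain B2m went from 8.49, 8.75 and 8.22 to 9.97, 10.45 and 9.85 (1.61 ± 0.20, adjusted p = 2.99e-08). PN13 replicate 2 was again the highest array in each. The regulator Irf7 (1.24 ± 0.23), Ifi27 (1.00 ± 0.19) and the tether Bst2 (0.91 ± 0.23) rose, whereas the transporter of peptides Tap1 (0.17) and the class I heavy chain H2-D1 (0.32) did not pass.

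Arrays of neighbouring ages did not follow a steady course. The list's mean log2 value was 6.43, 6.55 and 6.57 in the PN9 arrays, 6.56, 7.24 and 7.12 in those of PN11, 6.62 and 6.64 in those of PN12, and 7.46, 8.10 and 7.49 among the PN13 arrays, then 6.65 and 6.70 (PN15) and 7.81 and 6.80 (PN21). PN12 and PN15 thus lay near PN9, and the arrays of PN11 and PN21 differed within an age. With the PN12 arrays in place of the PN13 arrays, an alternative chosen after the data were seen, limma called 0 members of the list, and 0 at an unadjusted p under 0.05, with a median of 0.10; of all genes it called 6.13% higher and 7.96% lower (14.1% together). Oasl2 read 5.35 and 5.02 at PN12. Microglia genes moved little beside it, with a summed intensity of 3555 to 3777 over 21 genes at PN9 and 4166 to 4536 at PN13, and red blood cell genes less still (212.7 to 236.1, then 218.3 to 238.6, over 4 genes). Their part in the result was not tested.

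**Figure D3:**
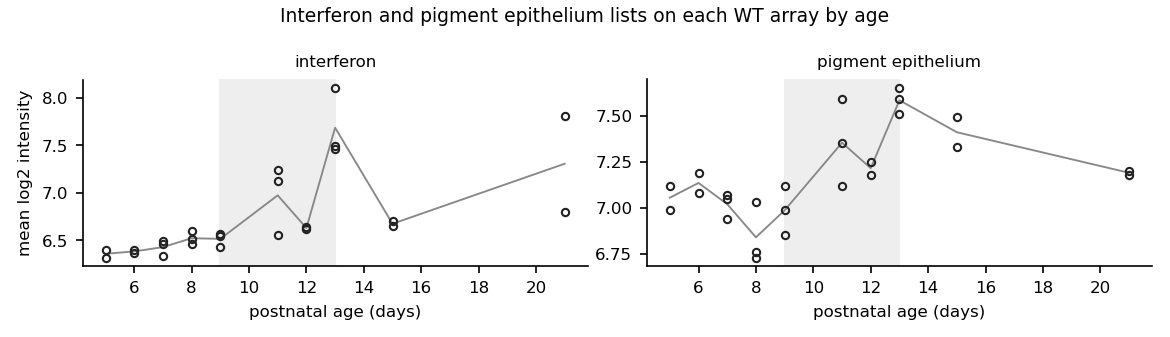
Mean log2 intensity of the 15 interferon-response genes and the 17 pigment epithelium genes in each WT array (points) by postnatal day, with a line through the mean of each age and PN9 to PN13 shaded. For interferon genes the 3 PN13 arrays (7.46 to 8.10) lie above PN9 (6.43 to 6.57), PN12 (6.62 and 6.64) and PN15 (6.65 and 6.70), while PN11 and PN21 each hold high and low arrays.

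The interferon-stimulated response element, bound by the STAT and IRF factors of this pathway, was searched on both strands as GAAA, any pair of bases, and GAAA again. It was in 5 of 13 promoter windows of the list (38.5%), those of B2m, Bst2, Ifit1, Ifit3 and Rsad2, against 978 of 32851 windows of all genes (2.98%) and 0 of 14 rod windows. The windows of the 3 members with the largest rises among these are given in RefSeq's GRCm38.p6, 5′ to 3′ along the gene's own strand, with the matches, read on either strand, in capitals. They start 104 and 85 bases before the gene start in Ifit1, 156 and 122 in Ifit3, and 139 in B2m:
Ifit1, chr19:34640639-34640888, plus strand: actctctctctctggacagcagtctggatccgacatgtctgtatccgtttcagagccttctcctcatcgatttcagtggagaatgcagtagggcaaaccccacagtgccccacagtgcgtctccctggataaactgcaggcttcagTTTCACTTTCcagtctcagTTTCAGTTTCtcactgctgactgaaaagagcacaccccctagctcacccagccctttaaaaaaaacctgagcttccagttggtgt
Ifit3, chr19:34583279-34583528, plus strand: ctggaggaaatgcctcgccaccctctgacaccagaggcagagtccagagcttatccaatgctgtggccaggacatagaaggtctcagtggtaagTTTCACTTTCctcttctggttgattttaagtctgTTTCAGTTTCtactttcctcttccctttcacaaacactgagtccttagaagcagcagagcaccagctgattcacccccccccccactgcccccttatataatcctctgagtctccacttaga
B2m, chr2:122147437-122147686, plus strand: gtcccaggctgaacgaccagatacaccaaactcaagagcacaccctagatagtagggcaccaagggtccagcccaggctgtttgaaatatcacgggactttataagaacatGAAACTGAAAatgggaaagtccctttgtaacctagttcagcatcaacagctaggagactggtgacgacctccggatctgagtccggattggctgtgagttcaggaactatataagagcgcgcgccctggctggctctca

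Tissue next to the neural retina was also represented. Of 17 pigment epithelium genes 11 were higher and none lower (median 0.54; 0.26 with 6 higher and 3 lower after centring). Transthyretin, Ttr, a carrier of thyroxine and retinol, read 7.86, 8.58 and 8.91 at PN9 and 10.39, 10.98 and 10.85 at PN13 (2.29 ± 0.33), Rgr, a retinal isomerizing opsin, 6.78, 6.99 and 7.16, then 8.21, 8.49 and 8.14 (1.30 ± 0.21), and the isomerase Rpe65 6.62, 6.61 and 6.93, then 7.92, 8.14 and 7.87 (1.26 ± 0.20). PN9 replicate 1 was the lowest array for Ttr and Rgr, and no groups overlapped. The dehydrogenase Rdh5 (0.93 ± 0.15), Lrat (0.68 ± 0.10) and the pigment genes Dct (0.91 ± 0.20), Pmel (0.67 ± 0.17) and Tyrp1 (0.61 ± 0.16) rose, and Pmel's adjusted p was 0.0565 without PN9 replicate 1. Tyrosinase, Tyr (0.10), and bestrophin, Best1 (-0.04), did not pass. The list's summed intensity was 2451 to 3177 at PN9, 3309 and 3671 at PN12 and 4688 to 5818 at PN13, and with the PN12 arrays in place of PN13, again chosen after the data were seen, 1 member was called. How much pigment epithelium adhered to each dissected retina was not tested, and it cannot be told apart from a change within those cells.

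The other neighbouring tissues gave smaller values. None of 16 lens genes passed in limma (median 0.18, and 0 at an unadjusted p under 0.05). Their summed intensities were 1355 to 1910 at PN9 and 1772 to 2390 at PN13. The spread in that fit included WT PN7 replicate 3, with a lens list mean of 12.25 against 6.18 and 6.32 in the other WT PN7 arrays. That fit therefore could not decide whether lens genes changed. On the 6 arrays alone, the block called 5 higher. None of 13 skeletal muscle genes passed (1 higher at an unadjusted p under 0.05; summed intensities of 1055 to 1200, then 1129 to 1223; 1 higher and 1 lower with the block). Of 13 connective tissue genes 2 were higher and 1 lower, against 10.9% of all genes higher and 9.76% lower. These were Mgp (0.95 ± 0.12), Postn (0.54 ± 0.12) and Col5a2 (-0.39 ± 0.10). The list's summed intensities were 2235 to 2352, then 2558 to 2744, and the block called 5 higher and 1 lower. None of 4 red blood cell genes passed, and 0 at an unadjusted p under 0.05.

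The PN11 arrays divided the interval, and more genes passed before them than after. From PN9 to PN11 2214 genes passed (12.2%), 1228 higher (6.75%) and 986 lower (5.42%), and from PN11 to PN13 88 passed (0.484%), 61 higher (0.335%) and 27 lower (0.148%). The second count was fragile: it was 3 without PN11 replicate 3, 14 without PN13 replicate 3, 37 without PN13 replicate 1, 47 without PN11 replicate 2 and 133 without PN11 replicate 1. Of rod phototransduction genes 13 of 21 were higher in the first step (median 0.39) and 1 in the second (median 0.24), Guca1a, which read 10.67, 10.59 and 10.46 at PN11 (1.02 ± 0.11, then 0.81 ± 0.11, adjusted p = 5.03e-05). Neurite growth genes were 19 of 32 lower in the first step and 2 in the second, progenitor genes 9 of 30 lower and then none (5 at an unadjusted p under 0.05 in limma), and vascular genes 15 of 26 higher and then 1. The medians of other lists did not shrink in this way, at 0.09 and then 0.16 for glycolysis, 0.18 and then 0.17 for clock genes, and 0.37 and then 0.53 for interferon genes. The steps share the PN11 arrays, so high or low readings there move them in opposite directions.

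The difference between the steps passed the test for 57 genes (0.313%), 27 with a more positive second step (0.148%) and 30 with a more negative one (0.165%). Quantile normalization gave 30 more positive and 65 more negative, and the compared arrays alone 20 and 56. Leaving out 1 array gave 18 to 55 genes, with 18 without PN11 replicate 1, 27 without PN9 replicate 3, 31 without PN11 replicate 2 and 36 without PN9 replicate 2. Guca1b gained 2.85 ± 0.16 in the first step and 0.54 ± 0.16 in the second, a difference of -2.30 ± 0.28 (adjusted p = 9.68e-06). Pdzph1 gained 2.94 and then 1.10 (difference -1.84 ± 0.32, and -1.49 with an adjusted p of 0.106 without PN11 replicate 1), and vitronectin, Vtn, 1.72 and then 0.65 (-1.07 ± 0.21, adjusted p = 0.00966). Among falls, Mdk, the growth factor midkine, differed by -0.95 in the first step and 0.00 in the second (0.96 ± 0.16, adjusted p = 0.00184). The interferon gene Ifit3 differed by 0.42 ± 0.28 in the first step and 1.21 ± 0.28 in the second (adjusted p = 0.42 and 0.0311). The second value missed the threshold without PN11 replicate 1 (0.0982), PN11 replicate 3 (0.181), PN13 replicate 2 (0.229) or PN13 replicate 3 (0.0692), and the difference between its steps did not pass (0.79 ± 0.49, adjusted p = 0.757).

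**Figure D4:**
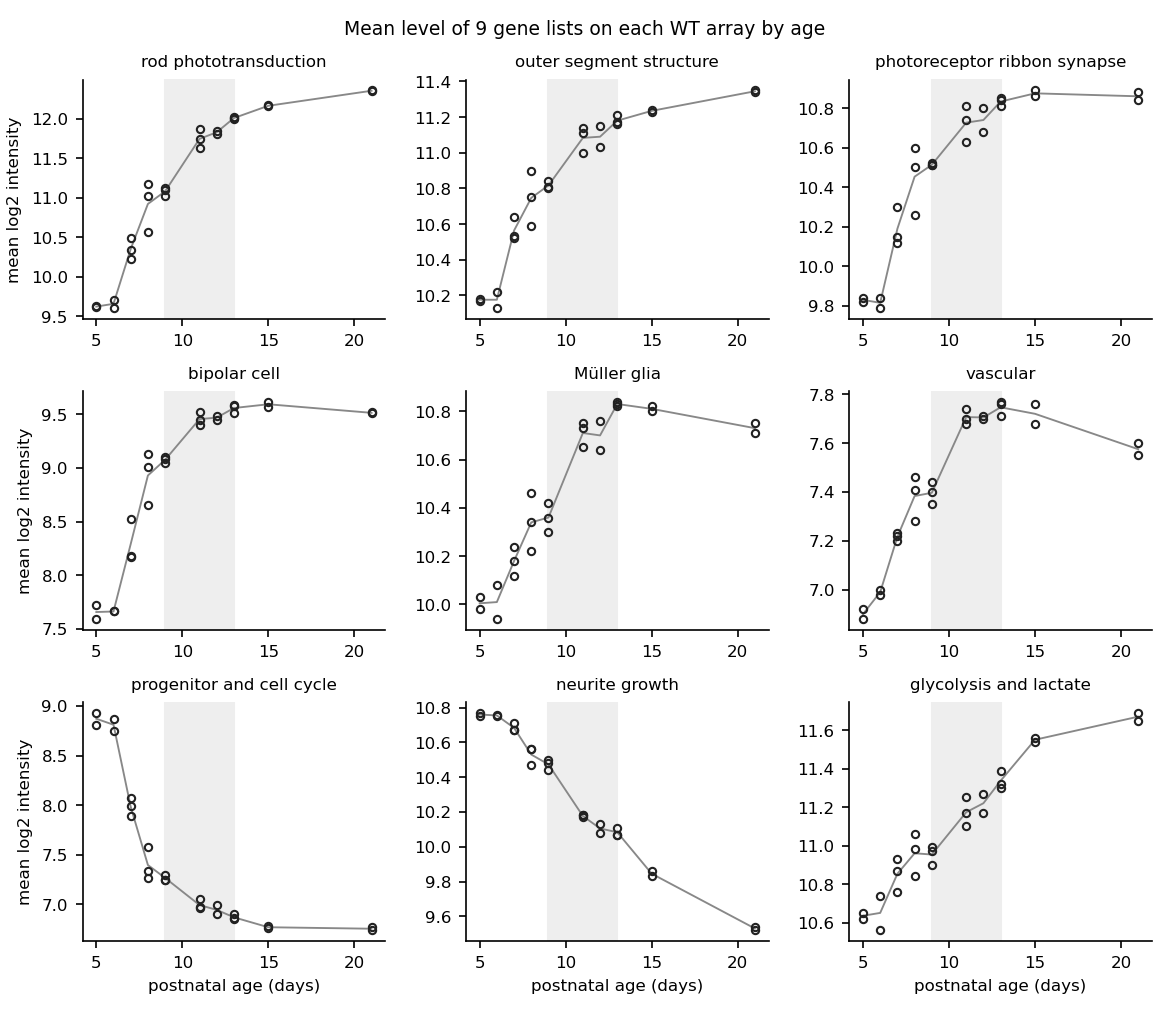
Mean log2 intensity of 9 gene lists in each WT array (points) by postnatal day, with a line through the mean of each age and PN9 to PN13 shaded. Rod phototransduction genes lie between 11.03 and 11.12 at PN9 and between 12.00 and 12.02 at PN13, while progenitor and cell cycle genes lie between 7.25 and 7.30, then between 6.85 and 6.90.

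Against the interval before it, rod and bipolar genes gained less and cell cycle genes lost less. A test of the PN9 to PN13 change minus the PN5 to PN9 change, which share the PN9 arrays, passed for 1201 genes (6.6%), 678 more positive (3.73%) and 523 more negative (2.87%). It gave 736 without PN5 replicate 1 and 605 without PN9 replicate 3. Progenitor genes were more positive in 24 of 30 (median 1.02). Mki67 averaged 10.41 at PN5, 6.55 at PN9 and 5.81 at PN13, a change of -3.86 followed by -0.74 (difference 3.12 ± 0.30, adjusted p = 2.21e-09). Rod phototransduction genes were more negative in 10 of 21 and more positive in 2 (median -0.70), and bipolar genes more negative in 14 of 23 and more positive in 2 (median -0.86). Pcp2 averaged 7.85, 11.35 and 12.10 at PN5, PN9 and PN13 (-2.73 ± 0.34), and Cabp5 7.67, 10.80 and 11.44 (-2.50 ± 0.32). Among the genes of the largest rises, Kcnj14 averaged 5.22, 5.95 and 9.94 (3.25 ± 0.40) and Guca1b 8.15, 9.67 and 13.06 (1.88 ± 0.29). Both were chosen for a large PN9 to PN13 change, which is part of this difference, so its positive sign is no separate result. Glutamine synthetase averaged 11.48, 11.44 and 12.73 (1.33 ± 0.19), and its mean was thus no higher at PN9 than at PN5. Pigment epithelium genes were more positive in 7 of 17 (median 0.53) and interferon genes in 4 of 15 (median 0.78).

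The same interval was compared in rd1 retina, where rods are being lost. The rd1 change minus the WT change passed for 610 genes (3.35%), 311 more positive in rd1 (1.71%) and 299 more negative (1.64%). Rod phototransduction genes were more negative in 10 of 21 and more positive in none (median -0.59), and outer segment genes in 9 of 26 and none (median -0.40). Cnga1 went from a mean of 11.23 to 11.90 in WT and from 11.26 to 11.11 in rd1 (difference -0.82 ± 0.14, adjusted p = 0.000121). Peripherin Prph2 went from 10.39 to 11.48 in WT and from 10.69 to 10.72 in rd1 (-1.07 ± 0.23, adjusted p = 0.00234), and the microtubule protein Rp1l1 from 10.12 to 10.45 and from 10.33 to 9.78 (-0.88 ± 0.12). The largest WT rises were kept in part: Guca1b gained 3.39 in WT and 2.44 in rd1 (-0.95 ± 0.23), and Gnat1 2.21 and 1.58, a difference that did not pass (-0.62 ± 0.32, adjusted p = 0.413). Pdzph1 gained 4.04 and 1.90 (-2.15 ± 0.26, adjusted p = 4.3e-07). Ribbon synapse genes were more negative in 6 of 22 and more positive in 1 (median -0.25).

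Outside the photoreceptors, limma called none of the 23 bipolar genes different between the changes (3 more positive in rd1 at an unadjusted p under 0.05), and none of the 32 neurite growth genes (4 more positive and 2 more negative). Of the progenitor genes, which fell in WT, 1 was more positive in rd1, Notch1. Opn1mw gained 2.50 in WT, and the rd1 change differed from it by 0.11 ± 0.31 (adjusted p = 0.936). Müller genes were more positive in 6 of 20 (median 0.19), including clusterin, Clu (0.71 ± 0.17, adjusted p = 0.00915). Reactive glia genes were more positive in 10 of 14 (median 0.85), with Gfap going from 7.38 to 7.51 in WT and from 7.40 to 9.40 in rd1 (1.88 ± 0.26), and microglia genes in 14 of 21 (median 0.72). Pigment epithelium genes were more negative in 3 of 17 (median -0.45), with Rgr at 6.98, then 8.28 in WT and 6.93, then 6.84 in rd1 (-1.39 ± 0.29) and Rpe65 at 6.72, then 7.98 and 6.70, then 6.79 (-1.17 ± 0.29). None of the interferon genes passed in this comparison in limma (median -0.32, with 2 more positive and 4 more negative at an unadjusted p under 0.05). The list mean was higher at PN13 than at PN9 in both genotypes. It was 6.40 to 6.57 in the rd1 PN9 arrays and 7.03 to 7.45 in the rd1 PN13 arrays. In WT it was 6.43 to 6.57, then 7.46 to 8.10.

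**Figure D5:**
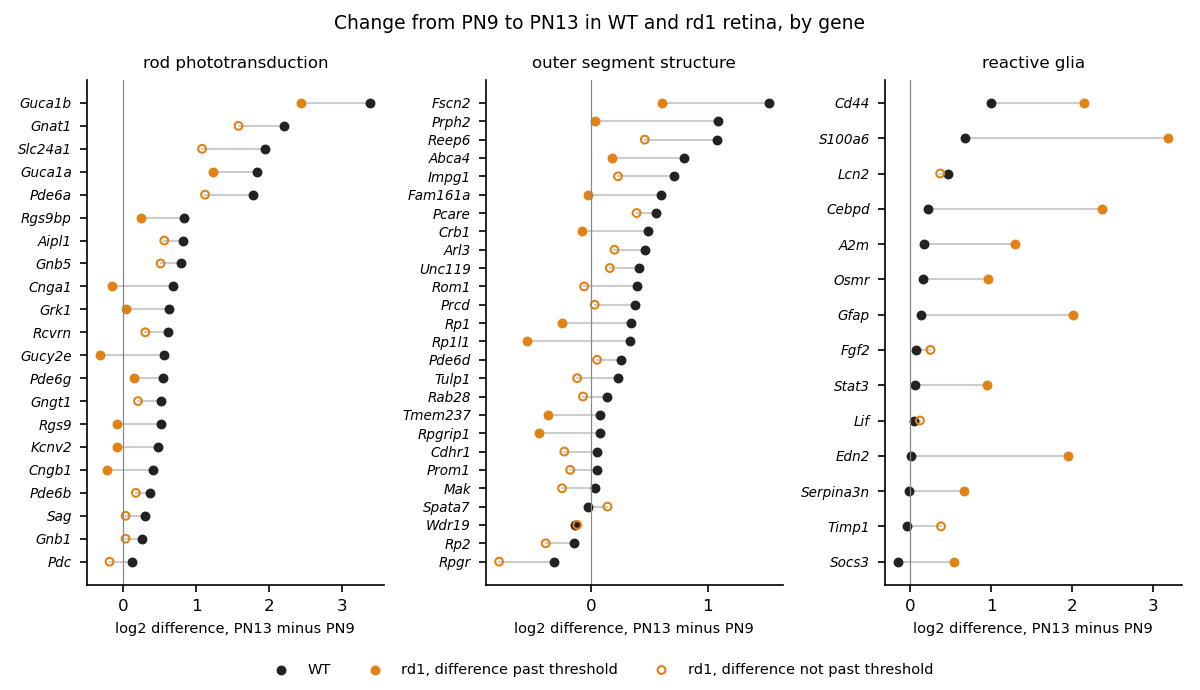
Log2 difference PN13 minus PN9 in WT retina (dark points) and rd1 retina (orange points, filled where the rd1 and WT changes differed past the threshold) for each rod phototransduction, outer segment and reactive glia gene. The rd1 points lie to the left for most rod and outer segment genes, as for Cnga1 (difference -0.82), and to the right for reactive glia genes such as Gfap (1.88).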

How the data were processed

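Retinal cRNA was measured on 1-colour arrays. The deposited values are intensities on a linear scale for 45037 probe sets, made by the authors with RMA (robust multi-array averaging) per the submitters' processing notes; whether all 54 arrays were normalized together is not stated, and their medians ran from 127.2 to 133.6. Values were taken to log2. GEO's platform annotation gave 34945 probe sets 1 symbol, 932 several and 9160 none; the probe set with the highest mean stood for each of 18193 genes (9010 had several, and 2957 of these had a called probe set, 19 in both directions). limma 3.58.1 (R 4.3.3) fitted 1 mean per genotype and age on 50 arrays, those of 10 ages at which both genotypes had 2 or more (30 residual degrees of freedom), with an intensity trend and Benjamini-Hochberg adjustment. The number of arrays limits the precision.

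Named genes are the 12 largest rises and falls without overlap, the 5 members of a list with the largest differences, the 5 largest each way in other contrasts, and Pde6b; other named list members were chosen after their values were seen. The members and lists were chosen with earlier results of these data known. The labels do not pair arrays across ages, and the replicate block took equal replicate numbers as pairs. Deviations of PN9 and PN13 arrays from their group means correlated at 0.477, 0.107 and 0.313 for equal numbers. For unequal numbers they correlated at -0.361 to 0.156. Deviations within a group sum to 0, so these values depend on each other, and they do not settle whether the arrays are paired. Alternatives were quantile normalization, centring, averaging a gene's probe sets, a filter that drops the dimmest 30% of genes, no trend, array weights, the compared or the WT arrays alone, the replicate block, leaving out each array, and leaving out arrays reported earlier to hold lens or muscle transcripts. On simulated data for PN13 against PN9 (18193 genes), 82 of 100 genes changed by 0.5 log2 and 100 of 100 changed by 1 log2 were recovered, with 10 false calls. The simulated noise was normal and independent between genes and arrays, and only those genes changed. In the real data 20.7% of genes passed, so these counts are no error rate for the real arrays. Some list genes were not analysed here. Promoter windows are RefSeq's, build GRCm38.p6; those of Gnat1, Guca1b and Kcnj14 were not used here.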

Additional observations from a re-analysis of the deposited data

Results flagged for a closer look

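Differences between changes that passed a test of the difference itself are given here as values (log2), with no explanation. Between the PN9 to PN11 and PN11 to PN13 steps in WT retina 57 genes differed. The second step was more positive for Sox11 (1.08), Zbtb12 (0.98), the Notch ligand Dll3 (0.96), Mdk (0.96) and Tead2 (0.91), whose means were lower at PN11 than at PN9. It was more negative for Guca1b (-2.30), Drd4 (-2.05), Kcnj14 (-1.97), Pdzph1 (-1.84) and Aqp1 (-1.73), all of which rose in the first step. Many of these calls were lost when 1 array was left out. Sox11 lost its call without any 1 of the 9 arrays (adjusted p 0.0535 to 0.337), and Dll3 without any but PN13 replicate 1 (0.059 to 0.189). Zbtb12 lost it without PN9 replicate 3, PN13 replicate 2 or any 1 PN11 array (0.0587 to 0.153), and Aqp1 without PN9 replicate 1, PN9 replicate 3, PN11 replicate 1, PN11 replicate 2 or PN13 replicate 2 (0.052 to 0.278). Tead2 lost it without PN9 replicate 2, PN11 replicate 1 or PN11 replicate 2 (0.0731 to 0.179), Drd4 without PN11 replicate 1 or 2 (0.0579 and 0.0615), and Kcnj14 (0.245) and Pdzph1 (0.106) without PN11 replicate 1.

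Between the PN5 to PN9 and PN9 to PN13 changes 1201 genes differed. The later change was more positive for Kcnj14 (3.25), Oasl2 (3.20), Mki67 (3.12), the kinetochore gene Cenpf (2.99) and Usp18 (2.92), and more negative for Abca8a (-3.24), Pcp2 (-2.73), Cabp5 (-2.50), Calml4 (-2.30) and Otor (-2.20). Otor averaged 8.04 at PN5, 9.59 at PN9 and 8.96 at PN13, and Calml4 7.26, 8.71 and 7.85, with the highest mean at PN9 in both. Usp18 lost its call without PN5 replicate 1 or 2, any 1 PN9 array or PN13 replicate 2 (adjusted p 0.0521 to 0.0762).

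Between the PN9 to PN13 changes of rd1 and WT retina 610 genes differed. The rd1 change was more positive for the procollagen enhancer Pcolce (2.52), S100a6 (2.50), Cebpd (2.15), Edn2 (1.95) and Fosb (1.90), and more negative for Pdzph1 (-2.15), Kcnj14 (-1.71), Cltrn (-1.64), Lrp4 (-1.39) and Rgr (-1.39). Kcnj14 averaged 5.95 in WT and 7.28 in rd1 at PN9, and 9.94 and 9.55 at PN13. Lrp4 averaged 9.65 and 9.00 in WT and 9.51 and 7.47 in rd1. Groups of 3 arrays were not tested for single outlying arrays.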

How the results depend on the processing

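The 3760 calls of PN13 against PN9 ran from 3096 to 3435 when 1 array was left out and were 4703 with the replicate block (2449 higher, 2254 lower). Leaving out 1 array gave 1519 to 1965 genes for PN11 against PN9, 3 to 133 for PN13 against PN11, 18 to 55 for the difference between the steps, 605 to 1204 against the PN5 to PN9 change and 424 to 696 between rd1 and WT. Centring on amacrine and ganglion cell genes gave 13440 genes for PN13 against PN9, 7255 for PN11 against PN9 (644 higher, 6611 lower) and 805 for PN13 against PN11 (59 higher, 746 lower). Quantile normalization gave 149 genes for PN13 against PN11 and 95 for the difference between the steps, and the compared arrays alone gave 2 for PN13 against PN11. Other settings split unevenly without moving the count by over 1.5 times: after centring 444 higher and 887 lower against the PN5 to PN9 change and 220 higher and 388 lower between rd1 and WT, and after quantile normalization 2009 higher and 2276 lower for PN13 against PN9. With PN12 in place of PN13, 0 interferon genes and 1 pigment epithelium gene were called, against 11 and 11. Of the genes named in the report, Pclo reversed under the mean of all probe sets (0.29), and Stmn3 (-0.05), Sdha (-0.09) and Atp5b (-0.12) on centring. Sag lost its call on quantile normalization, with a difference of -0.00. The cause of these changes was not tested. Centring is built to move every gene by the same amount. It also ended the calls of 33 genes of the named set without reversing them. Among these were Gucy2e, Cngb1, Rom1, Pde6c, Elovl4, Per1, Per2, Cry2, Pecam1, Flt1, Csf1r and C1qa. Best1 (-0.32) and Tyrobp (-0.32) were newly called lower on centring. The replicate block ended the calls of Tfap2b and Atp5b, made that of Pde6b, and changed no other named call. Dim genes limit the interferon list, of which 7 were called once the filter had taken the dimmest 30% of genes out of the test. The 224 genes of the named set that stayed in kept their call or lack of one.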

Other observations

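The genes in this section were chosen after their values were seen. The helicase Ddx60 read 4.15, 4.09 and 4.13 at PN9 and 6.03, 6.75 and 5.41 at PN13 (1.94 ± 0.27), and the guanylate-binding proteins Gbp6 (1.63 ± 0.25) and Gbp3 (1.62 ± 0.24), the signalling factor Irf9 (1.42 ± 0.19) and Parp14 (1.12 ± 0.23; -0.04 in its other probe set) rose as well. The transcription factor Myb went from 9.84, 9.79 and 10.03 to 8.55, 8.71 and 8.56 (-1.28 ± 0.09), and Mycn (-1.20 ± 0.12), Mycl (-1.20 ± 0.11), Insm2 (-1.14 ± 0.15), and Insm1 (-0.95 ± 0.09) were lower without overlap, and Hes6 fell by 1.00 (SE 0.11).

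The inducible heat shock proteins Hspa1b (1.49 ± 0.15) and Hspa1a (1.42 ± 0.20), near-identical copies whose probes may share signal, and the metallothionein Mt1 (1.07 ± 0.15; 0.06 in its other probe set) were higher. Tnfaip3, a brake on NF-kappaB signalling, went from 9.06, 9.06 and 9.04 to 10.95, 10.87 and 11.00 (1.89 ± 0.13). Dio2, which activates thyroid hormone, rose by 1.82 ± 0.20, the tachykinin Tac2 by 1.76 ± 0.12, and the caveolins Cav2 and Cav1 by 1.35 ± 0.13 (0.02 in the other Cav2 probe set) and 1.26 ± 0.16.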
